A study of Vitis vinifera with 24 samples.

Results

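The 8 genes described here form the thaumatin-like and osmotin gene cluster of grapevine that runs from *VIT_02s0025g04250* to *VIT_02s0025g04340* in the V1 annotation. They are the IDs listed for the cluster, and all 8 were found among the 26740 gene IDs of the expression tables and among the 25334 IDs listed in both years. *VIT_02s0025g04250*, *VIT_02s0025g04270*, *VIT_02s0025g04280* and *VIT_02s0025g04310* are described as osmotin 34 in the tables of the study, which hold only genes that changed with nitrogen in these samples. For *VIT_02s0025g04290*, *VIT_02s0025g04300*, *VIT_02s0025g04330* and *VIT_02s0025g04340* no description other than the name of the cluster was at hand. Whether a member has a description thus depends on its change in these samples, and the described and undescribed members are not compared as groups. The tables hold gene IDs and no coordinates, and no sequence of the 12X assembly was used here.

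Thaumatin-like proteins and osmotins belong to the pathogenesis-related family PR-5. They are small secreted or vacuolar proteins with several disulphide bonds, many of them inhibit the growth of fungi, and in vegetative tissues they are induced by pathogens and by osmotic stress. In grape they accumulate in the berry from the onset of ripening, together with chitinases, without any infection. They persist into the must and are known as the main proteins of heat haze in white wine.

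Whole berries of Sauvignon blanc were sampled in Bordeaux in 2013 and 2014. Each season had a sample at mid-ripening, written (v + 28) because it was taken 28 days past the middle of veraison, and another at ripeness, on day 35 and so written (v + 35). Control vines were not fertilized, and soil N100 vines received 100 U per hectare of nitrogen as ammonium nitrate in 2 applications, at bud break and at flowering. Both treatments were irrigated and stood on plots chosen for a low nitrogen status, and a replicate was a block of 10 vines. With 3 libraries for each treatment, stage and year there were 8 groups and 24 libraries of poly-A RNA. The clone and the rootstock were changed between the years, so that the year, the plant material and the deposited table cannot be told apart.

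Expression was deposited as RPKM, the reads of a gene scaled by the length of its exons and by the number of mapped reads of the library, from uniquely aligned reads only. Reads shared by near-identical copies are lost in this way, and reads from a gene and from its antisense strand were not separated by the library kit. The whole numbers of reads behind the RPKM could be recovered for 100.0% of the gene IDs within 0.0001 reads. Each library held between 29.6 and 80.0 M reads that fell in listed genes. In 2013 at (v + 28) every soil N100 library (44.2 to 53.9 M) was deeper than every control library (30.3 to 35.6 M). A difference is given as LFC, the log2 fold change of RPKM + 0.5, which understates the change of genes with low RPKM, and is followed by its standard error (SE). A gene was called changed when its adjusted p was 0.05 or less and its LFC 0.6 or more in size. Tests were made with limma on 17298 genes in 2013, 17171 in 2014 and 17268 for both years together, and all 8 members passed the filter of a mean of 0.5 RPKM in each of these fits.

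The cluster held both some of the most abundant transcripts of the ripe berry and a gene of low abundance. *VIT_02s0025g04330* had a mean of 10638 RPKM over the 24 libraries and ranked 3 among all genes in 2013 and 8 in 2014. *VIT_02s0025g04270* had a mean of 2.19 RPKM and ranked 13633 and 13644. The ratio of these means was 4853. The plot of RPKM by gene shows that the groups of a gene differed far less than the most and the least abundant member did. Members next to each other in mean RPKM could lie close, such as *VIT_02s0025g04310* and *VIT_02s0025g04300* with a ratio of means of 1.02.

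**Figure D1:**
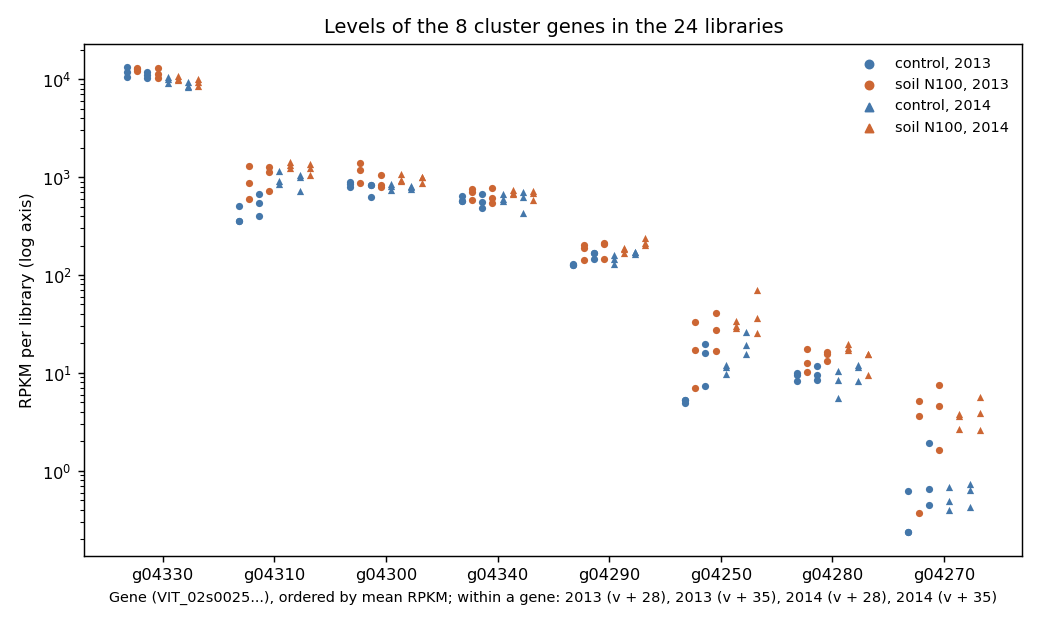
RPKM (log axis) of the 8 cluster genes in each of the 24 libraries, ordered by mean RPKM from 10638 for VIT_02s0025g04330 to 2.19 for VIT_02s0025g04270. Circles are 2013 and triangles 2014, blue is control and orange soil N100, and within a gene the groups run from (v + 28) to (v + 35) in 2013 and then in 2014.

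Of the RPKM summed over the 8 members, *VIT_02s0025g04330* made up 71.6 to 87.6% in a library, *VIT_02s0025g04310* 2.35 to 11.5%, *VIT_02s0025g04300* 4.62 to 8.80% and *VIT_02s0025g04340* 3.63 to 5.84%. The remaining members were smaller, with 0.841 to 1.98% for *VIT_02s0025g04290*, at most 0.588% for *VIT_02s0025g04250*, at most 0.139% for *VIT_02s0025g04280* and at most 0.0514% for *VIT_02s0025g04270*. The summed RPKM lay between 10720 and 16124, and between 1.12 and 1.72% of the reads in listed genes came from the members together. Along the order of mean RPKM, *VIT_02s0025g04330* was above *VIT_02s0025g04310* in 24 of 24 libraries, by 6.22 to 37.2 times. *VIT_02s0025g04310* and *VIT_02s0025g04300*, with means of 916 and 896 RPKM, could not be ordered, since the first was above the second in 13 of 24 libraries. *VIT_02s0025g04300* exceeded *VIT_02s0025g04340* (mean 632 RPKM) in 24 libraries, by 1.09 to 1.84 times, and *VIT_02s0025g04340* exceeded *VIT_02s0025g04290* (mean 171 RPKM) in all 24. *VIT_02s0025g04250* (mean 21.7 RPKM) was above *VIT_02s0025g04280* (mean 12.3 RPKM) in 19 of 24 libraries, and both were above *VIT_02s0025g04270* in every library.

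The members differed in steadiness as well. *VIT_02s0025g04330* varied 1.58-fold between its lowest and highest library, and *VIT_02s0025g04340*, *VIT_02s0025g04290* and *VIT_02s0025g04300* varied 1.77, 1.86 and 2.25-fold. *VIT_02s0025g04280* varied 3.53-fold and *VIT_02s0025g04310* 3.98-fold. The widest ranges were those of *VIT_02s0025g04250*, 14.1-fold, and *VIT_02s0025g04270*, 31.8-fold, the latter on 8 to 337 reads. Within groups the SD of the log2 values rose from 0.12 for *VIT_02s0025g04330* to 0.59 for *VIT_02s0025g04250* and 0.71 for *VIT_02s0025g04270*.

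The comparison of soil N100 with control asked how the supply of nitrogen to the vine changed the cluster at each stage and in each year. Every member had a higher mean under soil N100 in each of the 4 pairs of groups, except that quantile normalization turned the direction of *VIT_02s0025g04330*, and the size of the difference was very uneven along the cluster. Averaged over the 4 pairs, *VIT_02s0025g04270*, *VIT_02s0025g04250*, *VIT_02s0025g04310* and *VIT_02s0025g04280* rose with LFC of 1.82, 1.24, 0.73 and 0.64. The most abundant gene, *VIT_02s0025g04330*, had an LFC of 0.08 and did not pass the test. *VIT_02s0025g04340*, *VIT_02s0025g04300* and *VIT_02s0025g04290* had an LFC of 0.18, 0.30 and 0.33. In whole berries a higher transcript level and a larger share of the cells that express the gene cannot be told apart.

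*VIT_02s0025g04270* was barely detected in control berries. In 2013 it was at 0.236, 0.236 and 0.619 RPKM (8, 8 and 18 reads) in the control libraries at (v + 28) and at 5.19, 0.373 and 3.60 RPKM (274, 18 and 154 reads) under soil N100. At (v + 35) it was at 1.91, 0.660 and 0.450 RPKM in control and at 7.50, 1.62 and 4.60 RPKM under soil N100. At each of these stages 1 soil N100 library, replicate 2, fell within the range of the control libraries, and the groups overlapped. In 2014 the gene was at 0.397, 0.678 and 0.490 RPKM in control against 3.65, 3.78 and 2.67 RPKM under soil N100 at (v + 28). At (v + 35) the values were 0.639, 0.734 and 0.430 RPKM against 5.62, 3.91 and 2.62 RPKM, so that all soil N100 libraries of 2014 lay above all control libraries. The ratio of the mean RPKM was 8.40 and 4.54 in 2013 and 6.45 and 6.73 in 2014, for (v + 28) and (v + 35).

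At (v + 35) in 2014 *VIT_02s0025g04270* rose with an LFC of 2.00 (SE 0.23, adjusted p = 0.0399 by limma). It was the one gene called in that comparison, 0.00582% of the genes tested, so that 1 of the 8 members was called. At (v + 28) in 2014 it ranked 1 among all genes by p with an LFC of 1.92 (SE 0.23, adjusted p = 0.0531), and 0 of 8 members and 0% of all genes were called. The call at (v + 35) was lost without any 1 of 10 of the 12 libraries of that year (adjusted p 0.0565 to 0.349, LFC 1.76 to 2.09), whereas it held without replicate 2 of soil N100 at (v + 28) or replicate 3 of soil N100 at (v + 35). It was also lost in limma-voom on the recovered reads (LFC 2.69, adjusted p = 0.123), which called 0 members and 0 of all genes.

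*VIT_02s0025g04250* differed in the same direction at a higher level. In 2013 at (v + 28) it was at 5.24, 5.35 and 4.96 RPKM in control and at 32.9, 7.07 and 17.3 RPKM under soil N100. At (v + 35) it was at 19.7, 15.9 and 7.28 RPKM in control and at 41.2, 16.7 and 27.7 RPKM under soil N100. The groups were apart at (v + 28), with replicate 2 of soil N100 the closest to control, and overlapped at (v + 35). In 2014 the values were 9.75, 11.4 and 12.0 RPKM against 28.9, 30.2 and 34.1 RPKM at (v + 28), without overlap. At (v + 35) they were 26.3, 19.1 and 15.8 RPKM against 70.1, 36.0 and 25.5 RPKM, and replicate 3 of soil N100 fell below 1 control library. The LFC was 1.54 (SE 0.49) and 0.99 (SE 0.49) in 2013 and 1.45 (SE 0.30) and 0.99 (SE 0.30) in 2014, and none of these passed the test (adjusted p 0.115 to 0.989).

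*VIT_02s0025g04310*, an osmotin and the member with the second highest mean RPKM, was at 509, 357 and 356 RPKM in control and at 1283, 600 and 876 RPKM under soil N100 in 2013 at (v + 28). At (v + 35) of that year it was at 664, 541 and 400 RPKM in control and at 1273, 718 and 1120 RPKM under soil N100. The groups did not overlap at either stage, and the soil N100 mean was 2.26 and 1.94 times that of control. In 2014 it was at 912, 1153 and 841 RPKM against 1233, 1318 and 1416 RPKM at (v + 28), and at 1040, 1004 and 723 RPKM against 1371, 1042 and 1237 RPKM at (v + 35). The groups were apart here too, though at (v + 35) the lowest soil N100 library was next to the highest control library, and the ratios of the means were 1.37 and 1.32. The LFC was 1.13 (SE 0.29, adjusted p = 0.0833) and 0.94 (SE 0.29, adjusted p = 0.157) in 2013, and 0.46 and 0.41 (SE 0.16) in 2014. None of these passed the test, and in 2014 the adjusted p by limma was at least 0.989.

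*VIT_02s0025g04280* was at 9.59, 10.0 and 8.21 RPKM in control and at 17.6, 10.2 and 12.6 RPKM under soil N100 in 2013 at (v + 28). At (v + 35) the values were 9.51, 11.8 and 8.54 RPKM against 16.4, 13.4 and 15.5 RPKM. All soil N100 libraries of 2013 were above the control libraries of their stage, by a small margin at (v + 28). The 2014 values were 5.58, 10.4 and 8.39 RPKM against 17.3, 18.0 and 19.7 RPKM at (v + 28), apart, and at 12.0, 8.28 and 11.5 RPKM against 15.7, 9.48 and 15.8 RPKM at (v + 35), overlapping. The LFC was 0.49 and 0.58 (SE 0.18) in 2013 and 1.17 and 0.33 (SE 0.23) in 2014, with adjusted p from 0.145 to 0.989.

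**Figure D2:**
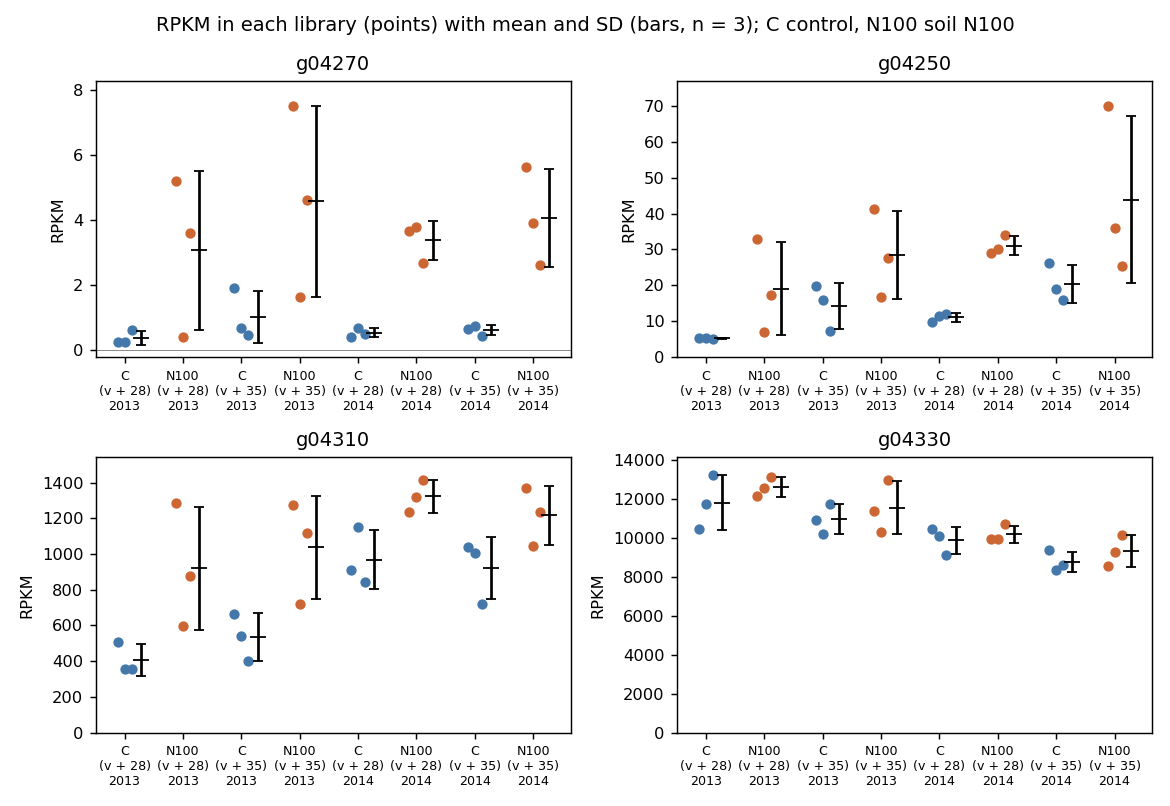
RPKM in each library (points, blue control and orange soil N100) with the mean and SD (black bars, n = 3) of each of the 8 groups for VIT_02s0025g04270, VIT_02s0025g04250, VIT_02s0025g04310 and VIT_02s0025g04330. The first gene lay at or below 0.734 RPKM in all control libraries of 2014 and at or above 2.62 RPKM in all soil N100 libraries of that year, while the last stayed between 8365 and 13242 RPKM in all 24 libraries.

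*VIT_02s0025g04290* was at 129, 127 and 128 RPKM in control and at 201, 141 and 190 RPKM under soil N100 in 2013 at (v + 28), and at 168, 167 and 147 RPKM against 214, 146 and 207 RPKM at (v + 35). In 2014 it was at 131, 160 and 146 RPKM against 184, 168 and 189 RPKM at (v + 28), and at 172, 170 and 164 RPKM against 236, 202 and 212 RPKM at (v + 35). The groups overlapped only at (v + 35) in 2013, where replicate 2 of soil N100 was the lowest library. The LFC was 0.45 (SE 0.15) and 0.21 (SE 0.15) in 2013 and 0.31 and 0.36 (SE 0.09) in 2014, and none of these passed the test (adjusted p of at least 0.129 by limma). *VIT_02s0025g04300* was at 796, 882 and 858 RPKM in control and at 1392, 879 and 1177 RPKM under soil N100 in 2013 at (v + 28), and at 827, 827 and 620 RPKM against 1056, 798 and 839 RPKM at (v + 35). Replicate 2 of soil N100 again fell within the control range at both stages. The values of 2014 were 734, 856 and 817 RPKM against 934, 904 and 1078 RPKM at (v + 28), and at 816, 797 and 758 RPKM against 995, 878 and 994 RPKM at (v + 35), apart at each stage. Its LFC was 0.42 and 0.25 (SE 0.17) in 2013 and 0.28 and 0.27 (SE 0.10) in 2014, and none of these passed either (adjusted p of at least 0.179 by limma).

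*VIT_02s0025g04330* was at 10442, 11720 and 13242 RPKM in control and at 12133, 12562 and 13146 RPKM under soil N100 in 2013 at (v + 28), and at 10933, 10220 and 11737 RPKM against 11363, 10292 and 12989 RPKM at (v + 35). A year later it was at 10449, 10098 and 9114 RPKM against 9922, 9938 and 10697 RPKM at (v + 28), and at 9361, 8365 and 8614 RPKM against 8531, 9291 and 10148 RPKM at (v + 35). The groups overlapped in all 4 pairs. Its LFC was 0.10, 0.07, 0.04 and 0.08 in these 4 pairs, and the 95% interval of the average over the 4 pairs ran from -0.05 to 0.21. *VIT_02s0025g04340* was at 636, 575 and 574 RPKM in control and at 755, 585 and 701 RPKM under soil N100 in 2013 at (v + 28), and at 557, 671 and 486 RPKM against 609, 542 and 767 RPKM at (v + 35). Its libraries of 2014 were at 676, 573 and 598 RPKM against 664, 681 and 732 RPKM at (v + 28), and at 708, 633 and 432 RPKM against 689, 590 and 723 RPKM at (v + 35). The groups of this gene overlapped in all 4 pairs as well, with LFC of 0.19, 0.16, 0.17 and 0.20. At (v + 35) in 2014 the LFC of *VIT_02s0025g04340* was -0.01 without replicate 3 of control.

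Counted over the cluster, 0 of 8 members were called at (v + 28) in 2013, where 0.0694% of all genes were called, and 0 of 8 at (v + 35) in 2013, with 0.00578% of all genes. The study's test of counts called more genes in both pairs, so that 0 calls here do not show that no member changed. With an unadjusted p of 0.05 or less and the same LFC threshold, 3 and 2 members stood out in 2013, for (v + 28) and (v + 35), beside 3.2% and 2.73% of all genes. In 2014 it was 3 and 2 members, beside 0.355% and 0.565% of all genes. limma-voom called 0 members in each of the 4 pairs. Over all genes it called 11 and 1 in 2013 and 0 and 0 in 2014, for (v + 28) and (v + 35). Replicate 2 of soil N100 at (v + 28) in 2013 was the lowest library of its group for 7 of the 8 members. Without it 5 members and 2.54% of all genes were called in that pair, the members being *VIT_02s0025g04250* (LFC 2.1), *VIT_02s0025g04270* (LFC 2.51), *VIT_02s0025g04280* (LFC 0.66), *VIT_02s0025g04290* (LFC 0.61) and *VIT_02s0025g04310* (LFC 1.40), with adjusted p from 0.0326 to 0.0484. Each of the 5 was uncalled without any 1 of the other 11 libraries (adjusted p 0.0650 to 0.378). The library was singled out by the values of these members, so that this count adds no support. Soil N100 libraries were all above the control libraries for 4 members at (v + 28) and 2 at (v + 35) in 2013. The groups were apart for 27.7% and 28.7% of all genes there, and with soil N100 higher for 5.68% and 4.8%. In 2014 this held for 6 and 4 members, where the groups were apart for 8.84% and 7.03% of all genes, and with soil N100 higher for 1.76% and 2.7%. No member was below control in this sense in any pair.

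All 32 LFC of the 8 members in the 4 pairs were above 0, and with all libraries kept they stayed so under every other setting tried except quantile normalization, which left 29 above 0 and turned some of those of *VIT_02s0025g04330*. The 32 values are not independent, since the members were measured in the same libraries and correlated within groups (median r 0.55). The share of all genes above 0 in all 4 pairs was not computed. The median LFC of the members was 0.47 and 0.41 in 2013 and 0.38 and 0.34 in 2014. Over all genes tested the median was -0.10 and -0.10 in 2013 and -0.05 and -0.01 in 2014, and rescaling by median ratios moved the 2013 medians to -0.01 and 0.00.

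For the mean of both stages in 2013, 3 of 8 members were called, with 2.01% of all genes. These were *VIT_02s0025g04270* (LFC 1.68, SE 0.46, adjusted p = 0.0305), *VIT_02s0025g04250* (LFC 1.27, SE 0.34, adjusted p = 0.0308) and *VIT_02s0025g04310* (LFC 1.04, SE 0.20, adjusted p = 0.0136). All 3 are among the members that the study lists for a change with nitrogen in these samples. The call of *VIT_02s0025g04310* held without any 1 library. Those of *VIT_02s0025g04250* and *VIT_02s0025g04270* were lost without 9 and 8 of the 12 libraries taken singly (adjusted p up to 0.0705 and 0.0752). Both held without replicate 2 of soil N100 at either stage or replicate 1 of control at (v + 35), and that of *VIT_02s0025g04270* also without replicate 3 of control at (v + 28). In 2014, 1 of 8 members was called for the mean of both stages, *VIT_02s0025g04270* with an LFC of 1.96 (SE 0.16, adjusted p = 0.00149), among 0.0408% of all genes, and this held without any 1 library. Without replicate 3 of soil N100 at (v + 35) in 2014 *VIT_02s0025g04250* was called as well (LFC 1.38, adjusted p = 0.0457). It was uncalled without any 1 of the other 11 libraries (adjusted p 0.0805 to 0.327). These means take the libraries of both stages as independent, and with the stages averaged per replicate number 0 members were called in either year (adjusted p of 0.0759 for *VIT_02s0025g04310* in 2013 and 0.0645 for *VIT_02s0025g04270* in 2014).

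The mean of the 4 pairs, a comparison added after the data had been seen, was fitted over the 24 libraries and called 4 of 8 members, all higher, where 0.666% of all genes were called. *VIT_02s0025g04270* had an LFC of 1.82 (SE 0.26, adjusted p = 0.000507), *VIT_02s0025g04250* 1.24 (SE 0.22, adjusted p = 0.00169), *VIT_02s0025g04310* 0.73 (SE 0.13, adjusted p = 0.00149) and *VIT_02s0025g04280* 0.64 (SE 0.11, adjusted p = 0.00141). The study lists these same 4 members for a change with nitrogen in these samples, so that their count is not independent evidence. *VIT_02s0025g04290* and *VIT_02s0025g04300* passed the p threshold (adjusted p = 0.00295 and 0.00812) with an LFC below 0.6, and *VIT_02s0025g04340* and *VIT_02s0025g04330* passed neither (adjusted p = 0.119 and 0.406). With the stages averaged per replicate number the first 4 members were again called, with adjusted p of 0.0199, 0.0257, 0.0323 and 0.0169. Only the LFC of *VIT_02s0025g04280* fell under the threshold without a single library, to 0.59 without replicate 1 of soil N100 at (v + 28) in 2013 and to 0.58 without replicate 1 of control at (v + 28) in 2014.

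**Figure D3:**
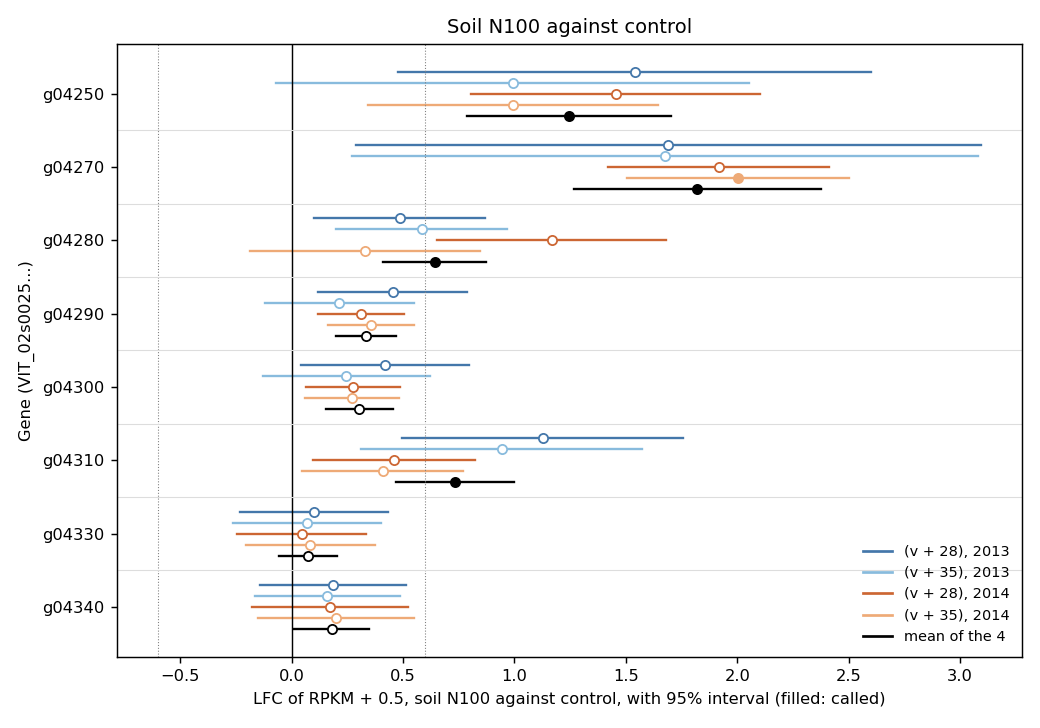
LFC of RPKM + 0.5 for soil N100 against control with its 95% interval for the 8 cluster genes, at each stage and year (colours) and for the mean of the 4 pairs (black). Filled points were called, dotted lines mark an LFC of 0.6 in size, and the values run from 0.08 for VIT_02s0025g04330 to 1.82 for VIT_02s0025g04270 in the mean of the 4 pairs.

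The proportions within the cluster are given by the ratio of 2 abundant members. In 2013 at (v + 28) the ratio of *VIT_02s0025g04310* to *VIT_02s0025g04330* was 0.0487, 0.0304 and 0.0269 in the control libraries and 0.106, 0.0477 and 0.0666 in the soil N100 libraries. At (v + 35) in that year it was 0.0608, 0.0529 and 0.0341 in control and 0.112, 0.0698 and 0.0862 under soil N100. In 2014 it was 0.0873, 0.114 and 0.0923 against 0.124, 0.133 and 0.132 at (v + 28), and 0.111, 0.120 and 0.0839 against 0.161, 0.112 and 0.122 at (v + 35). The groups overlapped in 2013 at (v + 28), by 1 library, and in 2014 at (v + 35). The summed RPKM of the cluster, which *VIT_02s0025g04330* dominates, was 13792 ± 1326 (SD, n = 3) in control and 15576 ± 702 under soil N100 at (v + 28) in 2013, and 13014 ± 497 and 14359 ± 1731 at (v + 35). In 2014 it was 12439 ± 782 and 13405 ± 662 at (v + 28), and 11284 ± 751 and 12441 ± 797 at (v + 35).

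The content of green tissue and of seeds was followed with marker lists beside the nitrogen comparison. The 10 genes of photosystem subunits and chlorophyll-binding proteins had a positive LFC in 10 of 10 cases at both stages in 2013 (median 0.74 and 0.82), and in 9 and 10 of 10 in 2014 (median 0.09 and 0.31). Their summed level was 103 to 142 RPKM in control and 176 to 266 RPKM under soil N100 at (v + 28) in 2013, and 98.4 to 120 RPKM and 125 to 327 RPKM at (v + 35). In 2014 the ranges overlapped at (v + 28), with 193 to 274 RPKM in control and 236 to 270 RPKM under soil N100, and were 139 to 186 RPKM and 187 to 239 RPKM at (v + 35). The 11 seed genes, oleosins and late embryogenesis abundant genes, had a negative LFC in 11 of 11 cases at both stages in 2013 (median -0.35 and -0.79), and a positive LFC in 11 and 7 of 11 in 2014 (median 0.23 and 0.02). Their summed level was 292 to 545 RPKM in control and 245 to 483 RPKM under soil N100 at (v + 28) in 2013, and 503 to 656 RPKM and 295 to 333 RPKM at (v + 35). In 2014 it was 324 to 512 RPKM and 466 to 479 RPKM at (v + 28), and 219 to 437 RPKM and 301 to 416 RPKM at (v + 35). For the mean of both stages in 2013, 9 of 10 green genes were called higher and 2 of 11 seed genes lower. The genes of both lists were taken from the tables of genes that changed with nitrogen, so that their counts are not independent evidence of a direction. No gene of either list was at 0 in any library, and the part of these tissues in the response of the cluster was not tested.

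The comparison of (v + 35) with (v + 28) asked how the cluster changed over the last week of ripening. No member passed the test for a change over this week. In limma 0 of 8 members were called in control in 2013, where 8.46% of all genes were called, 0 of 8 under soil N100 in 2013 (8.3% of all genes), 0 of 8 in control in 2014 (2.08%) and 0 of 8 under soil N100 in 2014 (0.734%). With an unadjusted p of 0.05 or less and the same LFC, 1 member stood out in control in each year, beside 9.51% of all genes in 2013 and 4.65% in 2014. Under soil N100 it was 0 members, beside 9.31% and 3.02%. limma-voom called 0 members in all 4 comparisons. Over all genes it called 1727 in control and 1890 under soil N100 in 2013, and 395 and 146 in 2014. The member concerned was *VIT_02s0025g04250*, whose control mean went from 5.18 ± 0.198 to 14.3 ± 6.35 RPKM in 2013 and from 11.0 ± 1.16 to 20.4 ± 5.36 RPKM in 2014 (SD, n = 3). Its control libraries at (v + 35) were above those at (v + 28) in both years, with an LFC of 1.27 (SE 0.49, adjusted p = 0.0761) in 2013 and 0.83 (SE 0.30, adjusted p = 0.103) in 2014. Under soil N100 the stages overlapped, with an LFC of 0.72 in 2013 and 0.37 in 2014.

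The LFC of *VIT_02s0025g04250* in control passed the test in 2013 without replicate 1 or 2 of soil N100 at (v + 28) (adjusted p = 0.0442 and 0.0300, same LFC) or without replicate 3 of control at (v + 35) (LFC 1.68, adjusted p = 0.0419), and in 2014 without replicate 1 of soil N100 at (v + 35) (adjusted p = 0.0471). It did not pass without any 1 of the other 9 libraries in 2013 (adjusted p up to 0.227) or the other 11 in 2014 (up to 0.305). In the fit of the 6 libraries of the comparison alone it passed in 2013 (adjusted p = 0.0178). Under soil N100 in 2014 the LFC of this gene was -0.03 without replicate 1 at (v + 35), and that of *VIT_02s0025g04270* in 2013 was -0.13 in place of 0.69 without replicate 2 at (v + 28).

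*VIT_02s0025g04290* was higher at (v + 35) without overlap in control in 2013 (LFC 0.32, SE 0.15), in control in 2014 (LFC 0.22, SE 0.09) and under soil N100 in 2014 (LFC 0.26, SE 0.09), with adjusted p of 0.141, 0.133 and 0.138. *VIT_02s0025g04280* was lower without overlap under soil N100 in 2014 (LFC -0.45, SE 0.23, adjusted p = 0.294). Groups were apart for 2 members in control in 2013, where this held for 46.9% of all genes, and for 0 members under soil N100 in 2013 (36.8%). In 2014 they were apart for 2 members in control (22.9%) and for 2 members, 1 in each direction, under soil N100 (36.4%). *VIT_02s0025g04330* had an LFC of -0.10, -0.13, -0.17 and -0.13 in the 4 comparisons, *VIT_02s0025g04340* of -0.07, -0.10, -0.09 and -0.06 and *VIT_02s0025g04300* of -0.17, -0.34, -0.02 and -0.02, all with overlapping groups. The median LFC of the members was 0.21 in control and 0.14 under soil N100 in 2013, and 0.04 and -0.04 in 2014.

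**Figure D4:**
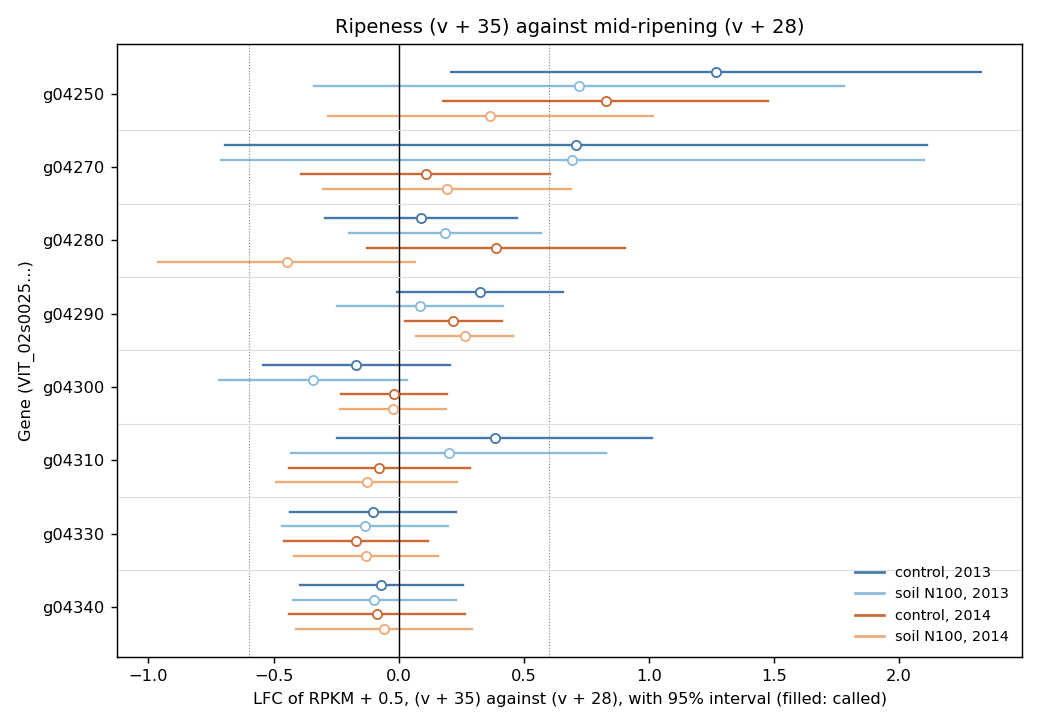
LFC of RPKM + 0.5 for ripeness (v + 35) against mid-ripening (v + 28) with its 95% interval for the 8 cluster genes in each treatment and year. No point is filled, that is, none was called, and the largest LFC is the 1.27 of VIT_02s0025g04250 in control berries of 2013.

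The comparison of 2014 with 2013 set both seasons, each with its own clone and rootstock, against each other within a treatment and stage. Years without overlap are given as a description only, because the share of all genes whose years were apart was not computed. In control berries *VIT_02s0025g04310* was the member with the largest LFC at both stages. At (v + 28) its control mean was 407 ± 88.2 RPKM in 2013 and 969 ± 163 RPKM in 2014 (SD, n = 3), and all libraries of 2014 lay above those of 2013. It rose with an LFC of 1.26 (SE 0.25, adjusted p = 0.000677) and was the 1 of 8 members called, among 11.9% of all genes. In control at (v + 35) the means were 535 ± 132 and 922 ± 174 RPKM, and again it was the 1 member called (LFC 0.80, SE 0.25, adjusted p = 0.0177), among 14% of all genes. This second call was lost without replicate 3 of control at (v + 35) in 2013 (LFC 0.60, adjusted p = 0.102) and without replicate 1 of control at (v + 35) in 2014 (LFC 0.70, adjusted p = 0.0717).

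Under soil N100 the years overlapped for *VIT_02s0025g04310*. Its LFC was 0.59 (SE 0.25, adjusted p = 0.0814) at (v + 28) and 0.26 (SE 0.25, adjusted p = 0.451) at (v + 35), and 0 of 8 members were called, among 10.3% and 9.64% of all genes. With an unadjusted p of 0.05 or less and the same LFC, 1 member stood out at (v + 28), *VIT_02s0025g04250* with an LFC of 0.93 (SE 0.44, adjusted p = 0.112), beside 11% of all genes, and 0 at (v + 35), beside 10.5%. The LFC of *VIT_02s0025g04250* at (v + 35) was 0.58, and limma-voom called 0 members at both stages, among 2258 and 2038 of all genes. Without replicate 1 of soil N100 at (v + 28) in 2013, the highest library of its group for *VIT_02s0025g04310*, 3 members and 9.61% of all genes were called at (v + 28), the members being *VIT_02s0025g04310* (LFC 0.86), *VIT_02s0025g04250* (LFC 1.44) and *VIT_02s0025g04280* (LFC 0.67). Each of the 3 was uncalled without any 1 of the other 23 libraries (adjusted p 0.0606 to 0.536). This library too was singled out by a member's own values, and the count adds no support. The ratio of *VIT_02s0025g04310* to *VIT_02s0025g04300* within a library was 0.405 to 0.639 in control at (v + 28) in 2013 and 1.03 to 1.35 in 2014. At (v + 35) it was 0.646 to 0.803 in control in 2013 and 0.953 to 1.27 in 2014. The ratio was thus below 1 in all control libraries of 2013 and above 1 in all control libraries of 2014 but 1.

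*VIT_02s0025g04330* was lower in 2014, with an LFC of -0.25, -0.32, -0.31 and -0.31 (SE 0.12) in control at (v + 28) and (v + 35) and under soil N100 at (v + 28) and (v + 35). The years did not overlap in the last 3 of these, a description without the share of all genes beside it. Only the second had an adjusted p below the threshold (0.0458), and none reached an LFC of 0.6 in size. *VIT_02s0025g04250* had an LFC of 1.02 (SE 0.44, adjusted p = 0.0745) in control at (v + 28), from 5.18 to 11.0 RPKM, without overlap. It was called there without replicate 1 or 2 of soil N100 at (v + 28) in 2013 (adjusted p = 0.0443 and 0.0347). Without any 1 of the other 22 libraries it stayed uncalled (adjusted p 0.0583 to 0.155). *VIT_02s0025g04340* had an LFC of 0.03 to 0.07 in the 4 comparisons, and *VIT_02s0025g04270* of -0.34 to 0.49 with an SE of 0.53. The median LFC of the members between the years was 0.11 and 0.07 in control and 0.25 and 0.08 under soil N100, for (v + 28) and (v + 35).

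**Figure D5:**
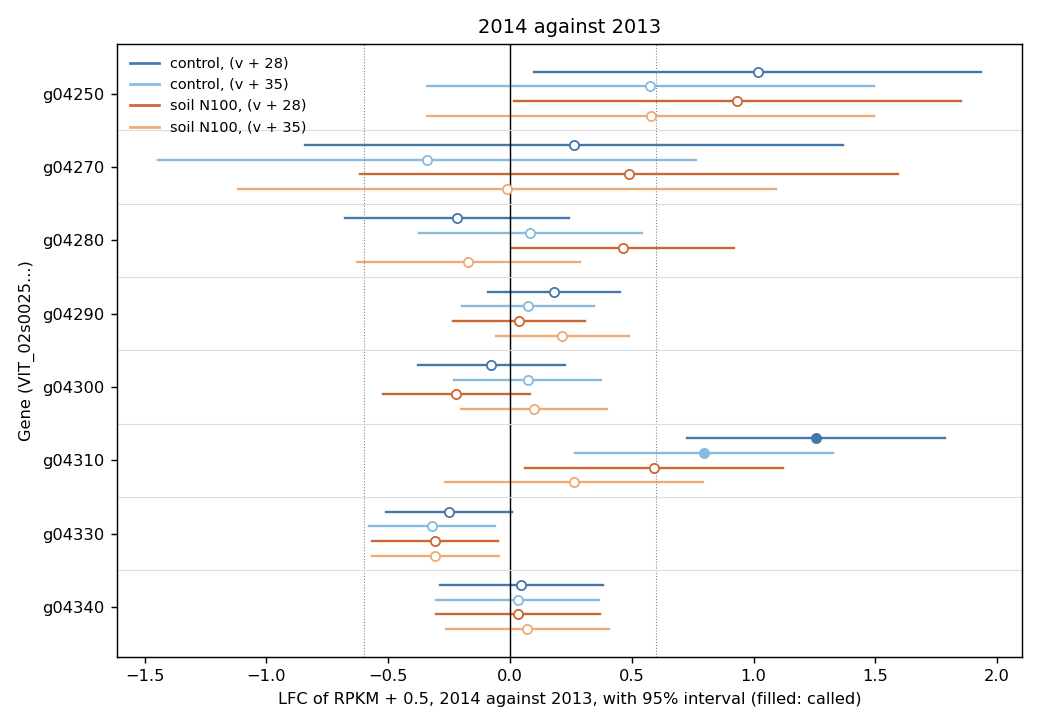
LFC of RPKM + 0.5 for 2014 against 2013 with its 95% interval for the 8 cluster genes in each treatment and stage. The filled points are those of VIT_02s0025g04310 in control berries, with an LFC of 1.26 at (v + 28) and 0.80 at (v + 35), and all points of VIT_02s0025g04330 lie between -0.25 and -0.32.

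The differences between these responses were tested as interactions. For the difference of the nitrogen effect between stages, 0 of 8 members were called in 2013 and in 2014, as were 0% of all genes in each year. With an unadjusted p of 0.05 or less and the same LFC, 0 members stood out in 2013, beside 0.792% of all genes, and 1 in 2014, beside 0.163%. This was *VIT_02s0025g04280*, whose nitrogen effect was lower at (v + 35) (difference of LFC -0.84, SE 0.33, adjusted p = 1.00). For the difference between years 0 members were called at (v + 28) and at (v + 35), with 0% of all genes at each stage. *VIT_02s0025g04280* had a difference of 0.68 (SE 0.31, adjusted p = 0.991) at (v + 28), the 1 member at the unadjusted threshold there, beside 1.23% of all genes, and 0 members reached it at (v + 35), beside 1.61%. For *VIT_02s0025g04310* the nitrogen effect was lower in 2014, by -0.67 (SE 0.36, adjusted p = 0.991) at (v + 28) and -0.53 (SE 0.36, adjusted p = 0.776) at (v + 35). The intervals of these differences were -1.41 to 0.08 and -1.28 to 0.21. For the difference of the late ripening change between years in control 0 members were called, among 4.62% of all genes. limma-voom called 0 members in each of these interactions. Over all genes it called 0 in those of the nitrogen effect and 782 in that of late ripening.

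The members could be placed in relation to each other over the 24 libraries, as a description, since libraries of a group share treatment, stage and season. The Pearson correlation of log2(RPKM + 0.5) was above 0 for 25 of the 28 pairs of members, with a median of 0.58 and a highest value of 0.92, between *VIT_02s0025g04250* and *VIT_02s0025g04290*. *VIT_02s0025g04250* and *VIT_02s0025g04270* had an r of 0.85, and *VIT_02s0025g04250* and *VIT_02s0025g04310* of 0.85. *VIT_02s0025g04330* stood apart from these, with an r of -0.36 with *VIT_02s0025g04250* and with *VIT_02s0025g04310*, -0.18 with *VIT_02s0025g04290* and at most 0.26 with any member. After the mean of each group was taken out the median was 0.55 and the highest value 0.86, between *VIT_02s0025g04250* and *VIT_02s0025g04270*, while the r of *VIT_02s0025g04330* with the others was between -0.18 and 0.18.

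Among 17267 other genes the pattern most like that of *VIT_02s0025g04310* was that of *VIT_05s0094g00350*, a chitinase (r = 0.95, mean 5461 RPKM), followed by *VIT_08s0007g06040*, described as beta-1,3-glucanase 1 (r = 0.92), and *VIT_01s0011g02000*, a serine carboxypeptidase-like gene (r = 0.90). For *VIT_02s0025g04300* they were *VIT_08s0007g06060*, described as beta-1,3-glucanase 3 (r = 0.83), *VIT_05s0094g00330* (r = 0.81) and *VIT_07s0005g02410* (r = 0.78). For *VIT_02s0025g04330* they were *VIT_13s0067g00140* (r = 0.91), *VIT_18s0001g08250* (r = 0.90) and *VIT_05s0020g00730* (r = 0.90), and the other members ranked between 6798 and 12855 in likeness to it. The nearest member to *VIT_02s0025g04310* was *VIT_02s0025g04250*, at rank 32.

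Beside the cluster, *VIT_02s0025g04230*, described as osmotin 34 in the same tables, is not a listed member. It stayed below the filter, with 0 to 3 reads in the 12 control libraries and 2 to 25 reads in the 12 soil N100 libraries (at most 0.731 RPKM), and it was not tested. Another 11 IDs from *VIT_02s0025g04200* to *VIT_02s0025g04400* were listed, among them *VIT_02s0025g04260* (0.160 to 1.36 RPKM) and *VIT_02s0025g04320* (3.01 to 6.84 RPKM) that lie between the members, and their means over the 24 libraries were 0.0302 to 117 RPKM. Of these, 9 were tested, 0 were called in any of the nitrogen comparisons, and their LFC in the mean of the 4 pairs was -0.25 to 0.31 with a median of -0.02.

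Of the thaumatin genes described elsewhere in the genome, *VIT_04s0023g03550* (mean 44.3 RPKM) and *VIT_04s0023g03540* (mean 36.2 RPKM) were both called higher under soil N100 in the mean of the 4 pairs, with LFC of 0.73 and 0.65. Of 11 genes of other pathogenesis-related families (PR-1, PR-4, chitinases and glucanases), 11 were tested in that comparison and 11 had a positive LFC, with a median of 0.77. Of these, 6 were called, all higher, where 0.666% of all genes were called. In each of the 4 single pairs 0 of them were called. Their LFC was positive in 11 of 11 at both stages in 2013, and in 10 and 8 of the 10 tested in 2014. The most abundant of these, the chitinase *VIT_05s0094g00350*, had an LFC of 0.39 (adjusted p = 0.0031), and *VIT_08s0007g06040* (mean 1148 RPKM) rose with an LFC of 0.78 (adjusted p = 0.000656). Their summed level was 3999 to 5019 RPKM in control and 5716 to 8326 RPKM under soil N100 at (v + 28) in 2013, and 4831 to 6300 RPKM against 7075 to 9193 RPKM at (v + 35). In 2014 the ranges overlapped at (v + 28), with 6267 to 9248 RPKM against 8794 to 9718 RPKM, and were 5794 to 7431 RPKM against 8116 to 8971 RPKM at (v + 35). The genes of these lists were described in the study because of their change in these samples, so that their counts are not independent evidence of a direction.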

How the data were processed

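The authors sequenced poly-A RNA of whole berries, 3 blocks of vines per group, from unstranded TruSeq libraries. Per the labels and the methods of the study, reads were handled with CASAVA 1.8.2 and TopHat2 2.0.10 with Bowtie2 2.1.0, uniquely aligned reads were counted per gene with HTSeq 0.5.4p3 on the 12X assembly with the CRIBI V1 annotation, and the counts were divided by exon length and library size. The deposited values, 1 table per year, are the authors' RPKM. Every column was matched to a sample by its name. The study tested counts, whereas here RPKM were tested, with the thresholds of the study kept.

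The 8 groups were fitted with limma 3.58.1 (R 4.3.3, empirical Bayes with intensity trend) on log2(RPKM + 0.5), 12 libraries per year for nitrogen, late ripening and their interaction, and 24 libraries for comparisons across years and for the mean of the 4 pairs, with p-values adjusted by Benjamini-Hochberg over all genes tested. Genes needed a mean of 0.5 RPKM. Library sizes were recovered from the steps of the RPKM values (35.0 to 94.3 M reads). The fitting code was tested on simulated data. Levels and figures were computed with Python 3.11.15, numpy 2.4.6, pandas 2.3.3 and matplotlib 3.10.9.

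Named genes were all 8 members with their RPKM in every library, the neighbour described as osmotin, the other neighbouring IDs by range, at most 3 genes per list by highest mean RPKM, and the 3 genes most correlated with each of the 3 most abundant members. The neighbouring IDs *VIT_02s0025g04260* and *VIT_02s0025g04320* were named after their values were seen. Descriptions came from the tables of the study. The members and the lists were chosen with earlier results of these data known. None of the gene IDs (0) matched the reference table at hand, and no sequence was used. Alternatives were another pseudocount (0.1 or 1), no filter or a mean of 2 RPKM, scaling by median ratios or quantiles, no intensity trend, a replicate block, limma-voom on recovered reads, thinning to the shallowest library, the 6 libraries of a comparison alone, and leaving out each library. The mean of the 4 pairs and its version with averaged stages were alternatives chosen after seeing the data.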

Additional observations from a re-analysis of the deposited data

How the results depend on the processing

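Of 4407 values of single members under alternative settings, 4328 kept their direction and their side of the threshold, 43 lost and 32 gained a call, and 4 reversed, and 501 of 551 counts stayed within 1.5 times. An uncalled value within 1 SE of 0 was taken to have no direction, so that a change of its sign counted as kept. Most of the values were uncalled in the main fit, and the agreement is mostly that of values that stayed uncalled. The call of *VIT_02s0025g04270* at (v + 35) in 2014 was kept in 8 of 23 alternatives. The members called under soil N100 at (v + 28) in 2013 (0) were 1 with the replicate block and 0 to 5 when single libraries were left out. For the mean of both stages in 2013 (3 members) the count was 1 without the filter, 2 with limma-voom, 0 with stages averaged and 1 to 4 without single libraries. For (v + 28) in 2014 (0 members) it was 1 with a pseudocount of 0.1, a mean of at least 2 RPKM, median ratios, quantiles or the block, 2 with the 6 libraries alone and 0 to 1 without single libraries. In 2014 *VIT_02s0025g04270* passed the filter of 2 RPKM only through its soil N100 libraries, so its call under that filter adds no support. Its control means were 0.52 and 0.60 RPKM, and those of soil N100 were 3.37 and 4.05 RPKM. For (v + 35) in 2014 (1 member) it was 0 with a pseudocount of 1, no filter, limma-voom, thinned reads or the 6 libraries alone, and 0 to 1 without single libraries. For the mean of both stages in 2014 (1 member) it was 0 with stages averaged and 1 to 2 without single libraries. For the mean of the 4 pairs (4 members) it was 3 to 4 throughout.

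For late ripening in control the members called (0) were 1 in 2013 with the block or the 6 libraries alone and 0 to 1 without single libraries, and 0 to 1 in 2014 without single libraries. Between years the count was 2 with the block or the 6 libraries alone and 1 to 2 without single libraries in control at (v + 28), 0 to 1 in control at (v + 35), and 0 to 3 under soil N100 at (v + 28). With all libraries kept, all genes called for late ripening in control ran from 1120 to 1746 in 2013 and from 4 to 395 in 2014. For these 3 comparisons of years they ran from 1621 to 2500, 1938 to 2988 and 1424 to 2258. Reversed values were the mean of the 4 pairs of *VIT_02s0025g04330* with quantiles (-0.060), late ripening under soil N100 of *VIT_02s0025g04270* in 2013 (-0.13 to 1.22 without single libraries) and of *VIT_02s0025g04250* in 2014 (-0.031 to 0.69), and the nitrogen LFC of *VIT_02s0025g04340* at (v + 35) in 2014 (-0.011 to 0.35). The cause of these changes was not tested.

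Whether replicate numbers pair the samples could not be settled with 3 libraries per group. Deviations of libraries with the same number correlated between groups from -0.44 to 0.71, and no pair of groups had all 3 above 0.1. Between the stages in 2013 the correlations were 0.06 to 0.22 in control and 0.03 to 0.28 under soil N100. In 2014 they were -0.34 to -0.05 and -0.41 to 0.04. With the replicate block *VIT_02s0025g04310* was called for nitrogen at (v + 28) in 2013 (adjusted p = 0.025), *VIT_02s0025g04270* at (v + 28) in 2014 (adjusted p = 0.0371), and *VIT_02s0025g04250* for late ripening in control in 2013 (adjusted p = 0.0451) and between years in control at (v + 28) (adjusted p = 0.049), and no other call of a member changed. Over all genes the counts called changed with the setting as well. Across other settings, libraries left out included, 12 genes became 0 to 440 for nitrogen at (v + 28) in 2013, and 347 became 11 to 556 for the mean of both stages in 2013. With 3 libraries per group, 8 to 63 reads of *VIT_02s0025g04270* in a control library limit its precision.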
